A study of Mus musculus with 10 samples.

Results

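The AP-1 family of transcription factors was followed in intrascapular brown adipose tissue of mice, the fat depot that makes heat. The 10 genes were chosen by name as the rows of the deposited table called Fos, Fosb, Fosl1, Fosl2, Jun, Junb, Jund, Atf3, Batf and Maff, and all 10 were found among 26863 genes. Polyadenylated RNA was sequenced in 10 libraries, 5 from PnocCre mice and 5 from Wildtype mice. PnocCre mice carry Cre recombinase at Pnoc, the gene of the neuropeptide prepronociceptin. Both groups had been given CNO (clozapine-N-oxide, a drug that switches on designer receptors) 1 h before the tissue was taken, and by the series' description PNOC neurons of the medial preoptic area had been activated. The receptor, the mice that carried it, and their age and sex are not stated in the labels. Some libraries stood apart in markers of other cells: PnocCre replicate 1 in neutrophil genes, PnocCre replicate 2 in lymphocyte genes, and muscle genes varied widely. Their values stand beside the results they touch. The libraries held 21304238 to 29171787 reads each. No label says that libraries of a group came from separate animals, so p-values measure the spread between these libraries.

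AP-1 is a dimer of basic leucine zipper proteins. FOS-type proteins (FOS, FOSB, FOSL1, FOSL2) bind DNA only with a partner, usually a JUN protein, while JUN proteins (JUN, JUNB, JUND) also pair with each other. ATF3, BATF and the small MAF protein MAFF are relatives that join such dimers or compete with them. Fos, Fosb, Jun, Junb and Atf3 are immediate early genes, transcribed within minutes of a rise in calcium, cyclic AMP or growth factor signalling and quickly silent again, and noradrenaline induces Fos in brown adipocytes.

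The stretches just upstream of the transcription start are shown for the 5 early genes that moved together between libraries and for Maff, which moved with them in only some libraries. Capitals mark letters that match a searched motif. The motifs were the cyclic AMP response element TGACGTCA (CRE), its 5-base core TGACG, the TPA response element TGANTCA, the variant TGACATCA known from the Jun promoter, the TATA box TATAAA and the serum response factor site known as the CArG box. All but the TATA box were searched on both strands, and the core lies within the full CRE.
Fos: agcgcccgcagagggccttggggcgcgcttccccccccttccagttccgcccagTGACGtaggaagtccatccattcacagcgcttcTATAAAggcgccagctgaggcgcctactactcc
Fosb: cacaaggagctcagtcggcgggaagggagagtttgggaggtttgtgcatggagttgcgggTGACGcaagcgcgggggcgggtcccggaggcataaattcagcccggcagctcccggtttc
Jun: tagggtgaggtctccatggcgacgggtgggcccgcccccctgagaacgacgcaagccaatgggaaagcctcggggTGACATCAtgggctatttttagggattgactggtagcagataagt
Junb: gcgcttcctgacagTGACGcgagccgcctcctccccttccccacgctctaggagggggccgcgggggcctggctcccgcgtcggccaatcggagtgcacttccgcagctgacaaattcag
Atf3: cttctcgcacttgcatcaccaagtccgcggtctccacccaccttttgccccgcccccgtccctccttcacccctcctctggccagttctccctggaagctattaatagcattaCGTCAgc
Maff: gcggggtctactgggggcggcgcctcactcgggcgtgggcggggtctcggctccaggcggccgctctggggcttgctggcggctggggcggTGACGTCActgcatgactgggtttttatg
Each line covers the 120 bases before a start site of RefSeq, 5′ to 3′ on the gene's strand, in build GRCm38.p6, which is not the build of the count table (GRCm39). The windows are chr12:85473770-85473889 (plus strand) for Fos, chr7:19310046-19310165 (minus) for Fosb, chr4:95052223-95052342 (minus) for Jun, chr8:84978749-84978868 (minus) for Junb, chr1:191183334-191183453 (minus) for Atf3 and chr15:79347400-79347519 (plus) for Maff. RefSeq windows were at hand for 9 of the 10 genes, all but Fosl1, with 3 start sites for Maff and 11 windows in all. The core TGACG stood in 6 of the 11 windows (Fos, Fosb, Junb, Atf3, Batf and 1 of Maff) against 11.7% of 32851 windows of all genes, and the full CRE in 1 window, that of Maff, against 1.24%. TGACATCA was found for Jun and in another Maff window (2.10% of all windows), and the TATA box for Fos (4.19%). The windows of Fosl2, which also moved with the 5 early genes, and of Jund held no searched motif and are not shown. For Maff, the window with the full CRE is the one shown. TGANTCA (3.41%) and the CArG box (0.749%) matched in 0 of the 11 windows, which says only that these letters are not in these stretches.

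In the tissue, transcripts of 8 genes were abundant and those of Fosl1 and Batf were near the detection limit. Per kilobase of gene length, the mean level over the 10 libraries was highest for Jund, the JUN protein that is present without stimulation, at 541 ± 154 normalised counts per kb (SD, n = 10). Junb (420 ± 277) and Jun (395 ± 152) followed, then Fosb (364 ± 304) and Atf3 (317 ± 329). Maff (214 ± 113), Fos (212 ± 266) and Fosl2 (107 ± 58.8) were next, and the ranges of neighbours in this order overlapped. Fosl1 (6.91 ± 8.98, highest library 28.5) and Batf (5.17 ± 3.97) had the lowest means and lay below every library of Fosl2, whose lowest had 42.6 per kb. They were not below every library of the more variable genes. The lowest libraries of Fosb (7.82), Fos (12.8) and Atf3 (25.4) lay below the highest of Fosl1. The 3 JUN genes made up 42.4% to 77.7% of the family's summed level per kb, and the 4 FOS genes 6.66% to 37.0%. The 8 listed brown adipocyte markers were all detected in every library. They were Ucp1, Cidea, Elovl3 and Prdm16, and the general adipocyte genes Adipoq, Plin1, Pparg and Fabp4. Their sums were 315879 to 398896 normalised counts in PnocCre and 375655 to 457772 in Wildtype.

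**Figure D1:**
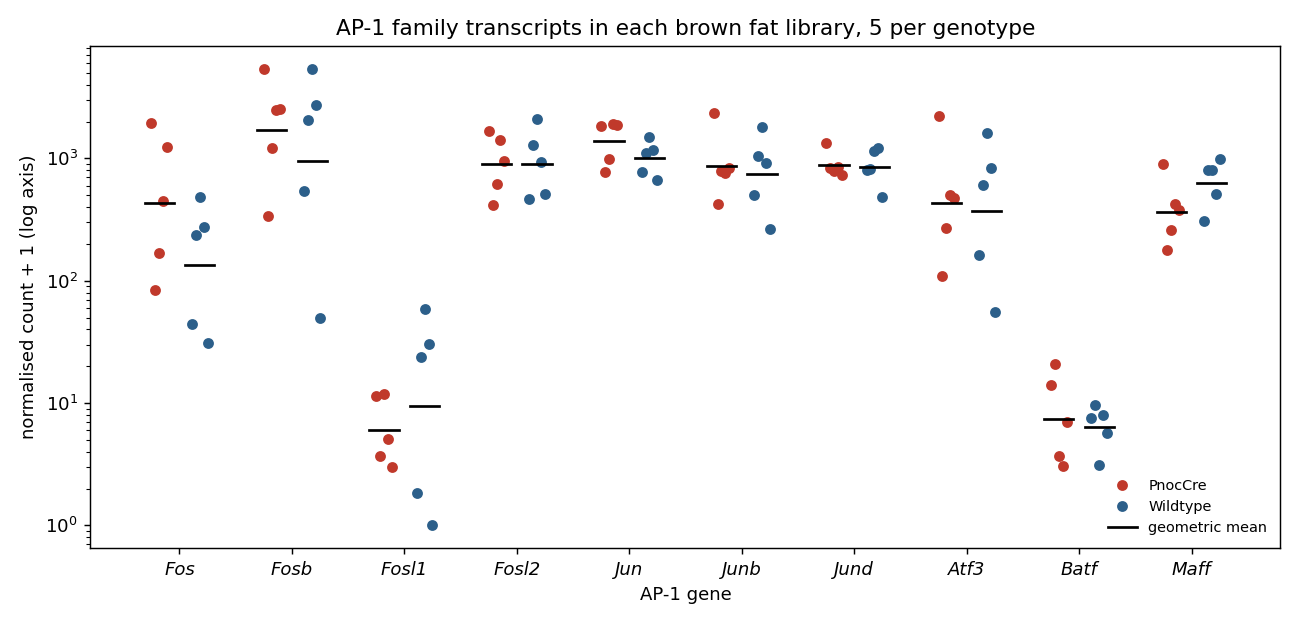
Normalised count + 1 (log axis) of each AP-1 gene in the 5 PnocCre (red) and 5 Wildtype (blue) libraries, with the geometric mean of each group as a bar. The groups overlap for all 10 genes, and Fos, Fosb and Atf3 span more than 10-fold within each genotype.

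Fos, the best known immediate early gene (chromosome 12, 85520664 to 85524047, GRCm39), had 1963, 82.6, 167, 451 and 1244 normalised counts in PnocCre replicates 1 to 5. In Wildtype replicates 1 to 5 it had 43.6, 237, 486, 276 and 30.2. PnocCre replicates 1 and 5 lay above all Wildtype libraries, and the other 3 lay within their range. The group means were 782 ± 804 and 215 ± 188 (SD, n = 5 each), a ratio of 3.64 between them. The log2 fold change was 1.69 with an SE of 1.06 and a 95% interval from -0.68 to 4.06 (limma, adjusted p 0.424; exact permutation p 0.183, 2-sided). The design's smallest possible exact p is 0.00794.

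Fosb, the relative of Fos known for its long-lived splice form, spanned the widest range of the abundant genes (chromosome 7, 19036621 to 19043976). It had 5332, 336, 1219, 2501 and 2531 normalised counts in PnocCre and 538, 2058, 5404, 2735 and 48.8 in Wildtype, in replicate order. Its highest and its lowest library were both Wildtype, 111-fold apart, while PnocCre libraries were 15.9-fold apart. The log2 fold change was 0.82 (SE 1.30, 95% interval -2.12 to 3.75, limma adjusted p 0.755), and it was -0.25 without Wildtype replicate 5.

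Fosl1 and Fosl2 encode FRA-1 and FRA-2, which lack the strong activation domain of FOS. Fosl1 (chromosome 19, 5497575 to 5505974) had 2.002 to 10.8 normalised counts in PnocCre, with a median of 4.06. In Wildtype it had 0.823, 22.6, 58.0, 29.1 and 0 in replicate order, where 0 reads allow up to 3.49 normalised counts (3 reads, counting error only). Thus 3 Wildtype libraries exceeded every PnocCre library, and the 2 others had 1 read and 0 reads. The log2 fold change was -0.67 (SE 1.07, limma adjusted p 0.756) and -1.87 with DESeq2 (SE 0.96, adjusted p 0.281). Fosl1 overlaps Ccdc85b on the opposite strand, and no source used here gives the strand setting of the counting, which leaves its low counts uncertain. Fosl2 (chromosome 5, 32293145 to 32315186) had 1689, 412, 622, 1426 and 949 in PnocCre and 464, 1287, 2080, 940 and 507 in Wildtype. Its group means of 1020 ± 535 and 1056 ± 665 were close, and the log2 fold change was -0.0029 with a 95% interval from -1.04 to 1.03 (limma, adjusted p 0.998).

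Jun, the main partner of FOS proteins (chromosome 4, 94937271 to 94940459), had 1835, 774, 996, 1906 and 1889 normalised counts in PnocCre. In Wildtype it had 776, 1106, 1482, 1170 and 663. PnocCre replicates 1, 4 and 5 lay above all Wildtype libraries, while replicates 2 and 3 lay within their range. The log2 fold change was 0.47 (SE 0.29, 95% interval -0.16 to 1.11, limma adjusted p 0.410; exact permutation p 0.198). Junos, a noncoding RNA on the opposite strand, overlaps Jun and averaged 28.2 counts. Junb (chromosome 8, 85701113 to 85705347), a JUN protein that restrains JUN in many cells, reached 2331 in PnocCre replicate 1, while the 4 remaining PnocCre libraries had 423 to 838. Wildtype libraries had 264 to 1791, and the log2 fold change was 0.23 (SE 0.53, limma adjusted p 0.839). Junb overlaps Prdx2, an abundant gene of the opposite strand, at a mean of 4452 counts beside 966 for Junb. As the strand setting of the counting is not given, part of the Junb counts could come from Prdx2, which was not tested. Jund (chromosome 8, 71151599 to 71153265) varied least of the family, with 727 to 1345 in PnocCre and 486 to 1204 in Wildtype. Its log2 fold change was 0.06 with a 95% interval from -0.47 to 0.58 (limma adjusted p 0.914).

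Atf3, a stress-induced factor (chromosome 1, 190902493 to 190950236), had 2232, 108, 269, 499 and 473 normalised counts in PnocCre and 161, 608, 1604, 827 and 54.6 in Wildtype. The groups covered nearly the same range, and the log2 fold change was 0.22 (SE 1.04, 95% interval -2.11 to 2.55, limma adjusted p 0.925). Its sign turned when Wildtype replicate 5 (-0.47), PnocCre replicate 1 (-0.37) or Wildtype replicate 1 (-0.083) was left out. Maff, which has no activation domain (chromosome 15, 79230821 to 79243276), had 898, 177, 257, 425 and 374 in PnocCre and 310, 808, 810, 514 and 986 in Wildtype. PnocCre replicates 2 and 3 lay below every Wildtype library, and PnocCre replicate 1 lay above all but Wildtype replicate 5. Its log2 fold change of -0.79 (SE 0.41, 95% interval -1.70 to 0.11) had the smallest p of the family, 0.0790 before adjustment and 0.341 after it (limma). A transcript without a symbol overlaps Maff on the opposite strand, at a mean of 42.5 counts.

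Batf, a factor best known from lymphocytes (chromosome 12, 85733443 to 85755861), averaged 7.26 counts, under the minimum of 10 for the fit. It had 12.98, 19.97, 2.71, 2.03 and 6.01 in PnocCre and 6.59, 8.61, 2.11, 6.99 and 4.65 in Wildtype (exact permutation p 0.706). PnocCre replicate 2, its highest library, also had 5650 summed normalised counts of 12 lymphocyte markers, while the 4 remaining PnocCre libraries had 95.1 to 333 and Wildtype libraries 103 to 177. All 12 markers were in the table, Ms4a1 was at 0 in some libraries, and their part in the Batf count was not tested. In bulk tissue, more cells of a type and more RNA per cell cannot be told apart.

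Of the 9 genes fitted, 0 were called at an adjusted p under 0.05 with limma, against 0% of all 15301 genes, and 0 with edgeR's quasi-likelihood test. DESeq2 called 0 of the 10, against 3.44% of the 16733 genes to which it gave an adjusted p. At an unadjusted p under 0.05 limma had 0 of the 9, against 17.0% of all genes. The groups did not overlap for 0 of the 9, against 4.40% of all genes. The log2 fold change was above 0 for 6 and below 0 for 3, with a median of 0.22, while 49.3% of all genes were above 0 and their median was -0.006. This tally rested on single libraries: without Wildtype replicate 5 it was 2 above and 7 below 0 (median -0.21), and without PnocCre replicate 1 it was 3 above and 6 below (median -0.13). It moved the other way without PnocCre replicate 2, at 7 above and 2 below (median 0.49). Without Wildtype replicate 3, where 8 genes were tested, it was 7 above and 1 below (median 0.58). The intervals were wide: for Fos, Fosb, Fosl1 and Atf3 they held changes of more than 4-fold in at least 1 direction.

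**Figure D2:**
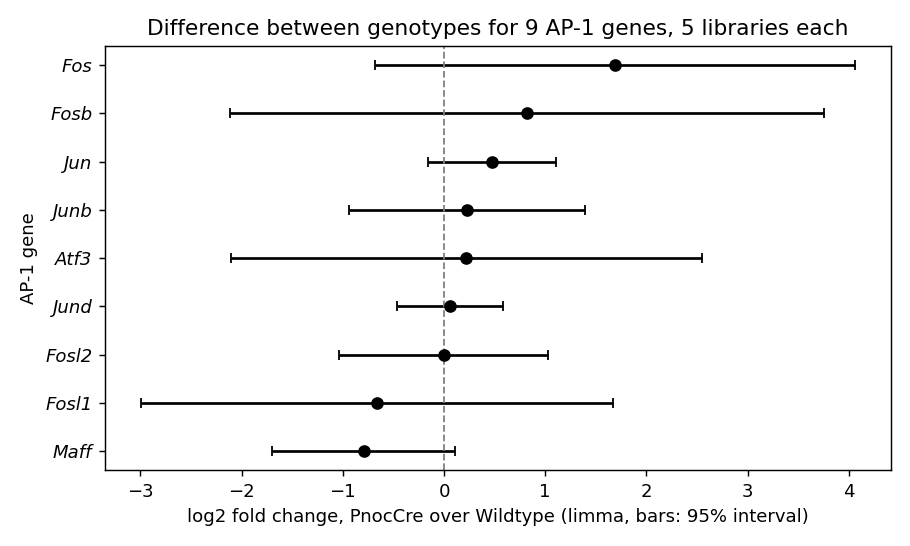
Log2 fold change of PnocCre over Wildtype for the 9 AP-1 genes fitted (limma, points), with 95% intervals as bars. All 9 intervals include 0, from Maff at -0.79 to Fos at 1.69.

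The spread between libraries of the same genotype was much larger than for most genes. The SD of log2(normalised count + 1) within a genotype was 2.17 for Fosb, 1.97 for Fosl1, 1.83 for Fos and 1.78 for Atf3. It was 0.98 for Junb, 0.88 for Fosl2, 0.78 for Maff, 0.55 for Jun and 0.45 for Jund. The median over all genes was 0.31. Among genes within 2-fold of the same mean level, 8 of the 9 stood at or above the 95th percentile of the SD, and Jund stood at percentile 91.2.

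This spread had a shared order. PnocCre replicate 1 had the highest value of its group for 7 of the 9 genes (all but Fosl1 and Jun) and PnocCre replicate 2 the lowest for 7 (all but Fosl1 and Jund). Wildtype replicate 3 had the highest value for 7 (all but Jund and Maff) and Wildtype replicate 5 the lowest for 7 (all but Fosl2 and Maff). The summed level per kb was 5655 in PnocCre replicate 1 and 4312 in Wildtype replicate 3, against 1188 in PnocCre replicate 2 and 1096 in Wildtype replicate 5. Each genotype thus had libraries with high and with low AP-1 transcripts. PnocCre replicate 2 also had 5650 summed counts of lymphocyte markers, against 95.1 to 333 in the other PnocCre libraries. The part of lymphocyte RNA in its AP-1 values was not tested. Without that library the log2 fold change was 2.28 for Fos, 0.68 for Jun, 0.49 for Junb and 0.72 for Atf3.

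**Figure D3:**
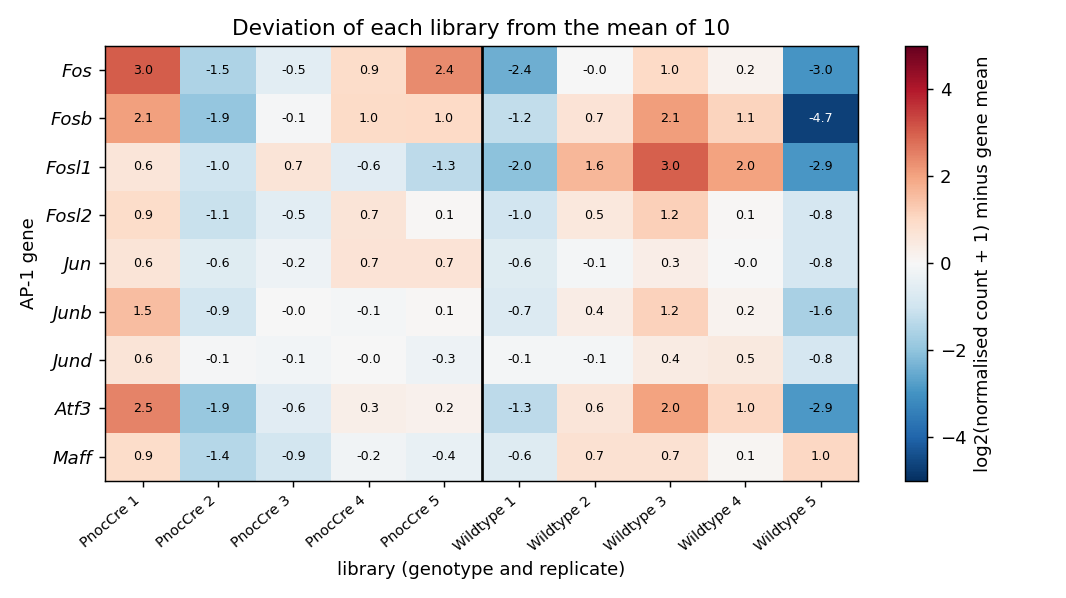
Each cell gives log2(normalised count + 1) of an AP-1 gene in a library minus that gene's mean over the 10 libraries, with PnocCre left and Wildtype right of the line. PnocCre 1 and Wildtype 3 are above the mean for all 9 genes, PnocCre 2 is below it for all 9, and Wildtype 5 is below it for all but Maff.

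Across the 10 libraries all 36 pairs of the 9 genes had a positive Pearson r, with a median of 0.783, and 23 pairs passed at an adjusted p under 0.05 (permutation test, adjusted over the 36 pairs). With values centred on the genotype means the median was 0.826 and 22 pairs passed, and with Spearman's rho 16 passed. The share of pairs that pass among other genes was not taken, so these counts do not show a trait particular to the family. Junb and Atf3 had the highest r, 0.976 (permutation p 2e-05, adjusted 3.6e-04; rho 0.952, p 1.2e-04, adjusted 0.00378), and 0.950 without the 2 libraries farthest from the median of Junb. Fosb and Atf3 had 0.948 (permutation p 1e-05, the smallest the resamples can give, adjusted 3.6e-04; rho 0.939, p 2.1e-04, adjusted 0.00378), and 0.955 without the 2 farthest. Fos and Jun had 0.948 (permutation p 5e-05, adjusted 6e-04; rho 0.903, p 6.2e-04, adjusted 0.0067), 0.936 without the 2 farthest, 0.904 within PnocCre and 0.990 within Wildtype. Fos and Jund, in contrast, had 0.639 (permutation p 0.0435, adjusted 0.0652; rho 0.564, p 0.0947, adjusted 0.139), and 0.116 without the 2 farthest, so this relation rests on those libraries.

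Maff took part in 0 of the 23 pairs. With Atf3 it had r = 0.408 over the 10 libraries (permutation p 0.241, adjusted 0.289; rho 0.430, p 0.220, adjusted 0.274) and 0.894 without the 2 libraries farthest from the median of Atf3. Within PnocCre the r was 0.995 and within Wildtype 0.026, over 5 libraries each. Wildtype replicate 5 had the lowest Atf3 (54.6), Fos (30.2) and Fosb (48.8) of all 10 libraries and the highest Maff (986). Without that library the r of Atf3 and Maff was 0.917. As a share of the family's summed level per kb, Maff made up 5.17% to 6.35% in PnocCre and 7.23% to 34.7% in Wildtype, where Wildtype replicate 5 was the highest and the other 4 had 7.23% to 12.6%. These shares did not overlap between the genotypes. They were looked at after the values were seen, among 12 such shares, and have no test. Such shares were not taken for other genes. The Maff counts themselves overlapped, at 177 to 898 in PnocCre and 310 to 986 in Wildtype.

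**Figure D4:**
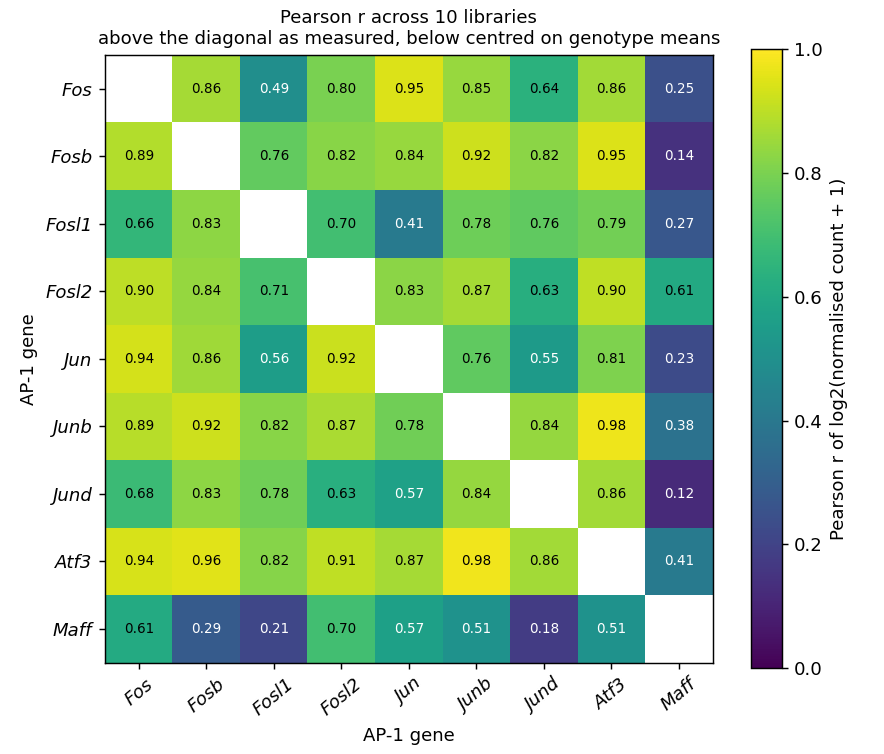
Pearson r of log2(normalised count + 1) for each pair of 9 AP-1 genes over 10 libraries, as measured above the diagonal and centred on the genotype means below it. Values are high among Fos, Fosb, Fosl2, Jun, Junb and Atf3 (0.76 to 0.98 as measured) and low for Maff (0.12 to 0.61).

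Relative to Atf3, Fos was higher in every PnocCre library. The ratio of Fos to Atf3 counts was 0.879, 0.765, 0.621, 0.904 and 2.63 in PnocCre and 0.272, 0.389, 0.303, 0.334 and 0.553 in Wildtype. The groups did not overlap, and the log2 ratio averaged -0.00051 (SD 0.81) over the 5 PnocCre libraries and -1.47 (SD 0.40) over the 5 Wildtype ones. Fos relative to each of the other 7 genes fitted overlapped between the groups. The ratio was picked after the values were seen and has no test. Over all 15300 other genes tested, the ratio of Fos to that gene was higher without overlap in PnocCre for 5, or 0.0327%. Beside Atf3 these were Adamts4 and Itih4, the noncoding Gm47593 and the pseudogene Gm13991. For the 8 genes most like Fos, named next, the ratio did so for 0. The median gene varied little within a genotype (SD of log2 0.31, against 1.83 for Fos). Its ratio therefore largely follows Fos, whose groups overlap. The 0.0327% is thus no measure of how rare such a ratio is among genes that vary with Fos.

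**Figure D5:**
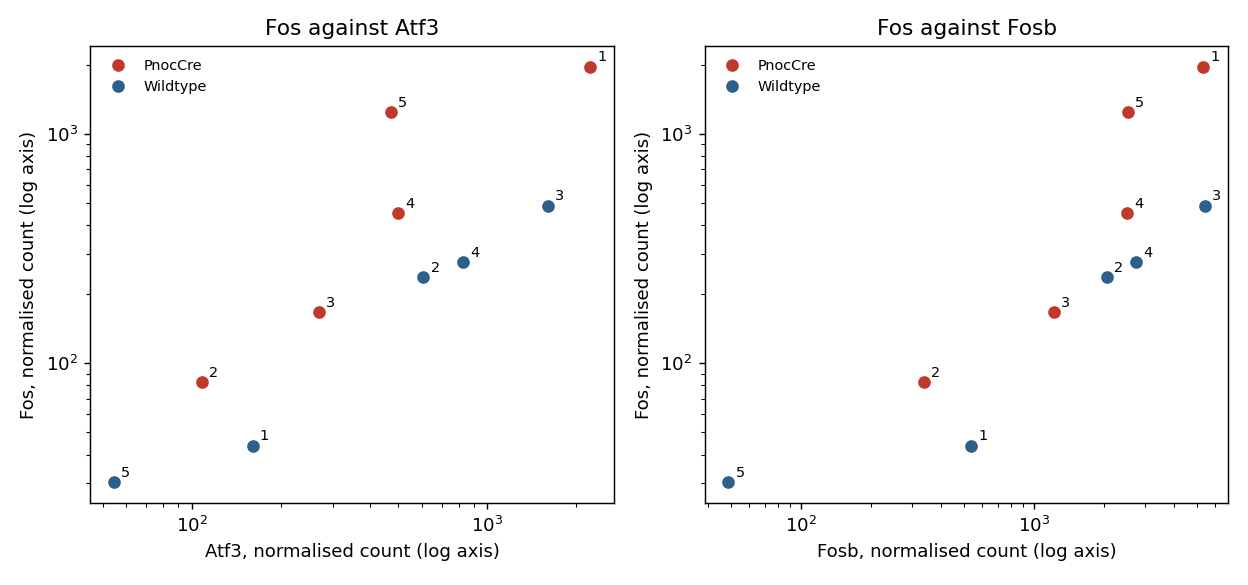
Fos against Atf3 (left) and against Fosb (right), normalised counts on log axes, with each library marked by its replicate number (PnocCre red, Wildtype blue). The PnocCre libraries have more Fos per Atf3 count (ratios 0.621 to 2.63 against 0.272 to 0.553), while the ratios to Fosb overlap.

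The genes most like Fos were sought among 11029 named protein-coding genes with a mean of at least 50 counts, by Pearson r over the 10 libraries centred on the genotype means. Of the AP-1 genes Atf3 (r = 0.938) ranked number 3, Jun (0.935) number 5, Fosl2 (0.899) number 18, Junb (0.892) number 24 and Fosb (0.886) number 27, while Jund ranked number 230 and Maff number 389. The 8 nearest genes outside the family were Nfil3 (0.972), a basic leucine zipper repressor, and Zfp36 (0.957), which directs the decay of AU-rich messages. The early transcription factor Egr1 (0.937), the ubiquitin ligase Arih2 (0.935), Tiparp (0.930), the orphan nuclear receptor Nr4a1 (0.927), Ugdh (0.927) and Tnfaip2 (0.925) followed. These were picked as the highest of many r values and are a description. Egr1 had 4422, 487, 1066, 2450 and 2366 counts in PnocCre and 256, 1293, 2900, 893 and 116 in Wildtype, the same lowest and highest libraries in each group as Fos.

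Around the family, 0 of the genes that transmit signals to AP-1 passed the test, against 0% of all genes with limma and 3.44% with DESeq2. Lists this short would hold few or no calls at that rate, so the 0 says little about these genes. Over all genes 49.3% had a log2 fold change above 0. Of 23 measured MAP kinases, their kinases and the Rps6ka kinases that they activate, 9 had a log2 fold change above 0 and 14 below 0 (median -0.03). The tally was 12 above and 11 below without PnocCre replicate 3, and 14 and 9 without PnocCre replicates 1 and 2. With limma or DESeq2, 0 of the 23 passed. The smallest p-values were those of Mapk12, the p38 gamma kinase abundant in muscle (0.63, SE 0.20, limma adjusted p 0.182), Rps6ka5 (0.32) and Rps6ka4 (-0.40), which encode the kinases MSK1 and MSK2. Of 15 transcription factors that drive Fos and Jun, 8 stood above 0 and 7 below (median 0.00), 0 passed with either tool, and the smallest p-values were those of Mef2a (0.25), Elk4 (0.42) and Mef2d (-0.25). Among 11 regulators of early messages and feedback phosphatases, 8 stood above 0 (median 0.16) and 0 passed (5 above and 6 below 0 without PnocCre replicate 1, and likewise without Wildtype replicate 5), with Btg2 at 0.71, Zfp36l2 at -0.28 and Dusp1 at 0.37. Of 19 other immediate early genes 16 stood above 0 (median 0.24) and 0 passed, with Egr3 at 1.5 (SE 0.56, limma adjusted p 0.217), Ier2 at 0.79 and Klf2 at 0.51. PnocCre replicate 1 had 404 counts of Egr3 and 1896 of Ier2, while the 4 remaining PnocCre libraries had 84.8 to 180 and 557 to 793. Without it 12 of the 19 stood above 0 (median 0.21), and without Wildtype replicate 5 also 12 (median 0.13).

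Among 18 other basic leucine zipper genes, 6 stood above 0 and 12 below (median -0.06), and 0 passed with limma. The tally was 11 above and 7 below without Wildtype replicate 3. DESeq2 called 2 of the 18, against 3.44% of all genes, and the groups did not overlap for the same 2, against 4.40%. Cebpb, a factor of adipocyte differentiation, had 2693 to 3973 counts in PnocCre and 4162 to 7632 in Wildtype, without overlap (DESeq2 log2 fold change -0.76, adjusted p 0.00592; limma -0.74, SE 0.18, adjusted p 0.127). Beside the Cebpb values, 8 of 8 listed brown adipocyte markers had a log2 fold change below 0 (median -0.33). DESeq2 called Ucp1 and Elovl3 of them lower in PnocCre. Adipoq, Plin1, Pparg and Fabp4 of this list are general adipocyte genes, so its tally does not mark brown against white adipocytes. Of 5 white adipocyte markers, 5 had a log2 fold change above 0 (median 1.34), and DESeq2 called Retn and Sncg higher. Over all genes 49.3% stood above 0 and DESeq2 called 3.44%. White adipocyte sums were 2674 to 7360 in PnocCre and 1308 to 3977 in Wildtype, with no marker of either list at 0, and their part in the Cebpb values was not tested. Maf had 140 to 362 in PnocCre and 76.4 to 121 in Wildtype, without overlap (DESeq2 1.08, adjusted p 0.00784; limma adjusted p 0.130). Of 9 macrophage markers, all in the table and none at 0 in any library, the summed counts were 1695 to 3522 in PnocCre and 1534 to 2047 in Wildtype. The log2 fold change was above 0 for 8 of the 9 (median 0.54). DESeq2 called Mrc1, Fcgr1 and Cd163 higher, against 3.44% of all genes, and the groups did not overlap for 2, against 4.40%. The part of macrophage markers in the values of Maf was not tested.

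Of 19 measured genes known as AP-1 targets, 18 had a log2 fold change above 0, the median being 0.40, beside 49.3% of all genes above 0, and 0 passed with limma. This list, like the other lists, was chosen with earlier results of these data known, so its tally is a description. Without PnocCre replicate 1, 12 of 17 stood above 0 (median 0.12), and without Wildtype replicate 5, 11 of 19 (median 0.13). With PnocCre replicates 1 and 2 both left out, 9 of 17 did (median 0.048). DESeq2 called 2 of the 19, against 3.44% of all genes, both metalloproteinases of matrix remodelling. Mmp3, whose groups overlapped, had 90.9, 54.5, 125, 103 and 49.1 counts in PnocCre and 70.0, 29.1, 31.6, 19.8 and 15.1 in Wildtype (DESeq2 log2 fold change 1.34, adjusted p 0.0405; limma 1.43, SE 0.40, adjusted p 0.153). Mmp13 had 9.52 to 56.1 in PnocCre and 1.16 to 7.38 in Wildtype, without overlap (DESeq2 2.19, adjusted p 0.0253; limma adjusted p 0.161). Mmp14 stood at 0.59 (limma adjusted p 0.190). The sums of 8 fibroblast markers, none at 0, were 8792 to 13067 in PnocCre and 5085 to 8988 in Wildtype. All 8 had a log2 fold change above 0 (median 0.78). DESeq2 called 5 of them higher (Dcn, Lum, Col1a1, Col1a2 and Dpt), against 3.44% of all genes. The groups did not overlap for 2 of the 8, against 4.40%. The part of fibroblast markers in the values of Mmp3, Mmp13 and Mmp14 was not tested.

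Skeletal muscle markers had higher mean levels in PnocCre and differed widely between libraries of each genotype. All 14 tested had a log2 fold change above 0, with a median of 5.52. Of these, 12 had an unadjusted p under 0.05 with limma, against 17.0% of all genes, and 0 an adjusted one, against 0%. DESeq2 called only Tnnt1 of the list, against 3.44% of all genes. All 15 listed were in the table, and their sum ran from 5662 to 164083 in PnocCre and from 58.1 to 20507 in Wildtype, with 7 of them at 0 in some libraries (Myh7, Pvalb, Tnni2, Actn3, Myh4, Ckm and Tnnc2). In Wildtype the order of the libraries by muscle markers was that by Fos, with replicates 5 and 1 lowest and 4 and 3 highest. In PnocCre, replicate 1 had the fewest muscle transcripts and the most Fos. Over the 10 libraries Fos and the mean log2 level of the muscle markers had r = 0.634 (permutation p 0.0502, adjusted 0.727; rho 0.503, p 0.143), 0.494 centred on the genotypes, and 0.114 without the 2 farthest libraries. Of 72 such relations between the 9 genes and 8 marker lists, 0 passed at an adjusted p under 0.05 by r or by rho. By r as measured, Maff with the fibroblast markers had the smallest p (r = -0.728, permutation p 0.0164, adjusted 0.727; rho -0.685, p 0.0346). Centred on the genotypes, its r was -0.626. PnocCre replicate 1, the highest for Fos, Junb and Atf3, also had 698 summed counts of 6 neutrophil markers against 22.1 to 69.9 in the other 9 libraries, with Retnlg, Camp and Ngp at 0 in some libraries. The part of neutrophil RNA in the AP-1 values was not tested, and without that library the log2 fold change of Fos was 1.14, that of Junb -0.13 and that of Atf3 -0.37.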

How the data were processed

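Polyadenylated RNA of 10 libraries was measured, 5 per genotype, grouped by the genotype label; replicate numbers follow accession order and pair no libraries. The submitters' processing notes name the build GRCm39 (mm39), DESeq2 without a version, featureCounts 1.5.0-p3 and HISAT2 2.0.5. For the annotation release and the strand setting, nothing is given in the sources used here. The deposited signal of a gene is its read count divided by 1 size factor per library, as the authors' values show. All values were whole multiples of 1 step per library (100% within 0.01 reads), which gave back the reads. The deposited log2 fold changes, p-values and adjusted p-values, per the file headers those of the authors' own comparison, were not used for results, and the gene length, in bases per the file headers, served only for levels per kb.

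The main test was limma-trend with robust moderation on log2(value + 1) for 15301 genes with a mean of at least 10, with Benjamini-Hochberg adjustment, 2-sided, threshold 0.05. A log2 fold change on this scale understates the change of low genes. Exact permutation tests ran over the 252 ways to divide the 10 libraries, and permutations of correlations used 100000 resamples. edgeR's quasi-likelihood test and DESeq2 were run on the recovered reads, and other scaling, pseudocounts, filters, weights and left-out libraries were tried. The tools were tested on simulated counts. Within a group no 2 libraries agreed within sampling noise (chi-square per degree of freedom at least 19.7).

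Named genes were all 10 family members, the 3 genes with the smallest p of each other list, and the 8 genes most like Fos; 1 gene that this rule names is not reported here. The members and lists were chosen with earlier results of these data known. The software was DESeq2 1.42.0, edgeR 4.0.16 and limma 3.58.1 under R 4.3.3.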

Additional observations from a re-analysis of the deposited data

Results flagged for a closer look

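In PnocCre replicate 1, 3 genes stood apart from the other 4 libraries of the group by more than Dixon's 95% critical value (0.71 for 5 libraries). Junb had 2331 normalised counts there, against 423 to 838 in the others. Jund had 1345, against 727 to 854. Atf3 had 2232, against 108 to 499. Of 20 groups tested these were the 3 that stood out. A rate of 1 flag in 20 by chance holds only for independent groups of normally distributed values. All 3 flags came from the same library and from genes that moved together (Pearson r 0.842 to 0.976 between them over the 10 libraries). They were also taken on counts rather than logs, so the 3 flags cannot be set against that rate.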

How the results depend on the processing

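The count of AP-1 genes called was 0 with every tool, scaling, pseudocount, filter and weighting tried, with each library left out in turn, and without PnocCre replicates 1 and 2 together, a choice made after the data were seen. The list tallies with libraries left out were also added after the data were seen. Over all genes the count was 0 in the main test, 575 with DESeq2, 53 with library quality weights, and 0 to 1 with 1 library left out (the gene Trp53inp1, without PnocCre replicate 3). The signs of Fos, Fosl1, Jun and Maff held in every alternative that gave a value, with Fos from 1.07 (library quality weights) to 2.28 and Maff from -1.12 to -0.53. Fosl1 ran from -1.87 to -0.25 and was not tested where its mean fell below the minimum. Of the others, Fosb was -0.25 without Wildtype replicate 5 and ran to 1.44 with a library left out. Fosl2 was 0.024 with TMM scaling and 0.068 without PnocCre replicates 1 and 2, and ran from -0.24 to 0.30 with 1 library left out. Junb ran from -0.14 to 0.55. Jund was -0.064 with library quality weights and -0.11 without PnocCre replicates 1 and 2, and ran from -0.14 to 0.18. Atf3 was -0.28 with library quality weights and ran from -0.47 to 0.75. Without PnocCre replicate 1, Fos stood at 1.14, Junb at -0.13 and Atf3 at -0.37. The cause of these changes of sign was not tested. The 23 correlated pairs became 22 when centred, 20 with a pseudocount of 8, 20 to 25 with 1 library left out and 17 without PnocCre replicates 1 and 2. The spread of 8 genes stayed at or above the 95th percentile with a pseudocount of 8. No paired analysis was possible because the labels give no replicate numbers that the groups share. Depth limits Fosl1 and Batf, at 0 to 58.0 and 2.03 to 19.97 normalised counts.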
